A study of Saccharomyces cerevisiae with 6 samples.

Results

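The genes described are 10 that encode mannoproteins of the yeast cell wall, CCW12 (YLR110C), CCW14 (YLR390W-A), SED1 (YDR077W), TIP1 (YBR067C), CWP1 (YKL096W), CWP2 (YKL096W-A), TIR1 (YER011W), TIR2 (YOR010C), TIR3 (YIL011W) and TIR4 (YOR009W), out of 6603 open reading frames in the deposited table. They were picked by gene identity, with the difference between RNA assemblies and total RNA already known, so their values in that comparison are a description and no p-value is given for them. Phenol and chloroform were used to extract RNA from untreated log-phase BY4741, a haploid laboratory strain of Saccharomyces cerevisiae. In a test tube, RNA at 150 µg/mL was placed in 150 mM NaCl, 10% polyethylene glycol and 1 mM MgCl2, and the assemblies that formed were collected by centrifugation. The 3 libraries of assemblies and 3 libraries of total RNA were all depleted of ribosomal RNA, and the submitters' treatment text is the same for both groups, so it remains unclear whether total RNA went through the same buffer. The assemblies were made from extracted RNA, without cells. Nothing in the labels ties a library to its own culture or reaction, so a p-value reflects the spread between these libraries alone, which may be technical. All 10 genes passed the filter on low values, an average of 10 normalised reads or more, and entered the fit.

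The yeast wall is built of glucan, some chitin and an outer layer of mannoproteins. Proteins of this group enter the secretory pathway, receive a glycosylphosphatidylinositol (GPI) anchor in the endoplasmic reticulum, and are later linked to wall glucan through what remains of that anchor. Their bodies are rich in serine and threonine, the residues that carry O-linked mannose. CCW12, CCW14, SED1, CWP1 and CWP2 encode structural wall proteins, whereas TIP1 and the TIR genes encode a related family known for induction by cold or lack of oxygen.

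The mRNAs share this serine and threonine coding, and it is shown here for 5 of them because the differences described below ran with it. Each line gives the 150 bases (50 codons) of the coding sequence with the most serine and threonine codons, 5′ to 3′, with those codons in capitals (RefSeq sequence and coordinates, build R64). The 5 were picked by fold difference. The first 3 mRNAs had the largest fold differences in favour of assemblies, and the last 2 the smallest. The last 2 are also the shortest members, with 279 nt in CWP2 and 402 nt in CCW12. CWP1, not shown, had a smaller share of these codons (28.5%) than CCW12 (30.1%) but was higher in assemblies.
SED1 (chrIV:600847-600996, strand +): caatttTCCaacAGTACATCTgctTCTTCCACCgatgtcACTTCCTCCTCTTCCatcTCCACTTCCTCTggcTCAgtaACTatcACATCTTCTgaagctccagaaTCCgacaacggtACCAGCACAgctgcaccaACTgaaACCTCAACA
CCW14 (chrXII:904045-904194, strand +): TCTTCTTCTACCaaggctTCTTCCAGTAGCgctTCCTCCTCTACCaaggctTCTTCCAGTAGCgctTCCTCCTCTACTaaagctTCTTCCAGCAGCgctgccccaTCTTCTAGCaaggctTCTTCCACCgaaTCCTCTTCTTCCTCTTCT
TIR4 (chrXV:345085-345234, strand +): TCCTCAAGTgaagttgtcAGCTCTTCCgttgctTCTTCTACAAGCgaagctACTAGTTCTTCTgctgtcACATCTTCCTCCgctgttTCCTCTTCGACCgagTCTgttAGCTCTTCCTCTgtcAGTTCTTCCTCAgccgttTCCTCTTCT
CWP2 (chrXI:259310-259459, strand +): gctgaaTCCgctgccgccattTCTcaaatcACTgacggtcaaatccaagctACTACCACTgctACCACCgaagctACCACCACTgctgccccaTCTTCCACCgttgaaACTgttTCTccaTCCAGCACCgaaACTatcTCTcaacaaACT
CCW12 (chrXII:369889-370038, strand -): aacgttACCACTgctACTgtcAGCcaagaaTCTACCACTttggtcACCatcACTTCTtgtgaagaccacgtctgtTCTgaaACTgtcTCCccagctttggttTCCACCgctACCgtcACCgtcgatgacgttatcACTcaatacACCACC
Serine and threonine took 29 of the 50 codons in SED1, 36 in CCW14, 34 in TIR4, 22 in CWP2 and 20 in CCW12. Each is the highest count over all stretches of its gene. Longer genes hold more stretches, so these counts are not a like comparison between genes. In these stretches C made up 32.7% to 38.7% of the bases and G 11.3% to 16.0%.

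Libraries held 8749240 to 10531980 reads assigned to open reading frames. The unit is the normalised read, the count after division by the library's size factor, so every difference is relative to the median gene and says nothing about the amount of RNA. Scaling every library to the same total moved the median gene by -0.56 on the log2 scale, and each member moved with it. LEU2 and MET17, which are deleted in the strain, were at 0 in all libraries, and URA3 reached at most 0.862 normalised reads. HIS3, of which the strain lacks only a part, had 158.6 to 293.2 and so checks nothing. Total RNA libraries 1 and 2 resembled each other most, with a chi-square per degree of freedom of 1.56, where other within-group pairs had 11.7 to 57.5. They were kept as separate libraries, as labelled.

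Across the family, 8 of 10 mRNAs were past the limma threshold (adjusted p under 0.05 over 5670 genes) and higher in assemblies, where 41.3% of all genes tested were. CCW12 alone was past it and lower, where 40.8% of all genes tested were, and CWP2 was not past it. Of the 10 members, 8 were past the threshold and at least 2-fold higher, where 26.3% of all genes tested were. Among all genes called higher, 1493 of 2342 were at least 2-fold higher. With equal library totals 1584 genes were higher and 3045 lower, in place of 2342 and 2316, and TIP1, CWP1, TIR1 and TIR2 were less than 2-fold higher (log2 fold difference 0.87, 0.48, 0.80 and 0.74). The median log2 fold difference was 1.40 over the members and 0.02 over all genes tested, on the log2(value + 1) scale used throughout. In 9 of the 10, all but CWP2, the 3 assembly values did not overlap the 3 total RNA values, as was so for 85.3% of all genes tested. These counts describe genes chosen with the contrast in view.

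Among the structural wall proteins, SED1, the gene for a major structural wall glycoprotein of stationary-phase cells, gained the most reads. Assembly libraries 1, 2 and 3 held 39960, 52169 and 59630 normalised reads of it, and the total RNA libraries, in the same order, 10401, 9542 and 12355. Every assembly library was well above every total RNA library, although the assembly libraries differed more among themselves, with a mean of 50586 ± 9930 against 10766 ± 1441 (mean ± SD, n = 3 each). The log2 fold difference was 2.22 (SE 0.17), or 4.66-fold. SED1 lies on chromosome IV at 600793 to 601809 on the plus strand (coordinates here and below are of the open reading frame in RefSeq, build R64), and like all 10 members it is a single coding exon.

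CCW14, which encodes a wall protein of the inner layer, had 9479, 12617 and 11773 normalised reads in the assembly libraries, compared with 2289, 2158 and 2286 in total RNA. The total RNA libraries were nearly level, with an SD of 75.1 around a mean of 2245 (n = 3), and the lowest assembly library was far above them. The log2 fold difference of 2.32 (SE 0.14), or 4.99-fold, placed it at rank 19 of the 5670 genes tested. It lies on chromosome XII at 903724 to 904440 on the plus strand.

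CWP1, whose protein is placed at birth scars, varied least between assembly libraries, with 3228, 3146 and 3170 normalised reads in the assembly libraries, compared with 1591, 1549 and 1486 in total RNA. The spread between libraries was 1.33% of the mean in assemblies and 3.42% in total RNA. Its log2 fold difference was 1.05 (SE 0.11), or 2.06-fold, the smallest among the 8 higher members. Its neighbour CWP2, a major wall constituent, was high in both kinds of library, with 17933, 17816 and 23035 normalised reads in the assembly libraries, compared with 15661, 14479 and 19234 in total RNA. The third total RNA library lay above the first 2 assembly libraries, so the groups overlapped, and the log2 fold difference was 0.25 (SE 0.16). With equal library totals it was -0.32, so its direction rests on the scaling. CWP2 (259253 to 259531) and CWP1 (261132 to 261851) lie on the plus strand of chromosome XI, 1601 bases apart.

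CCW12 encodes an abundant mannoprotein that is needed for a stable wall, and it was the most abundant member in total RNA. It had 20041, 23550 and 20298 normalised reads in the assembly libraries, compared with 37885, 35361 and 41752 in total RNA. All 3 assembly libraries were below all total RNA libraries, with means of 21296 ± 1956 and 38333 ± 3219 (n = 3 each). The log2 fold difference was -0.85 (SE 0.14). It is also the second shortest member, with a coding length of 402 nt on chromosome XII at 369697 to 370098, minus strand.

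**Figure D1:**
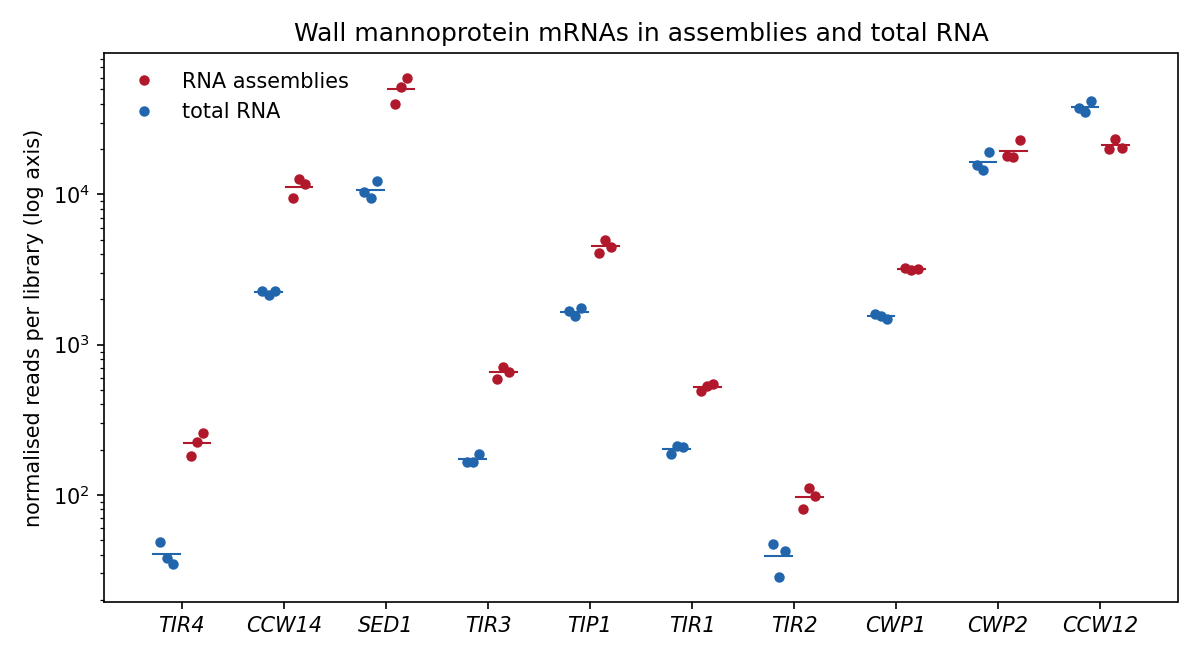
Normalised reads (log axis) of the 10 mRNAs in each of 3 assembly libraries (red) and 3 total RNA libraries (blue), with short lines at group means, ordered by log2 fold difference. TIR4, at the left, was lowest in total RNA together with TIR2 and highest in fold, CWP2 overlapped between groups, and CCW12, at the right, was lower in assemblies.

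All 4 TIR mRNAs and TIP1 were higher in assemblies. TIP1, a cold-induced member with the highest level of these 5, had 4097, 5007 and 4436 normalised reads in the assembly libraries, compared with 1669, 1549 and 1755 in total RNA. Its groups were widely apart, with a log2 fold difference of 1.44 (SE 0.13), or 2.72-fold. It lies on chromosome II at 372103 to 372735, minus strand.

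TIR4, which is required for growth without oxygen, had 180.3, 226.3 and 257.0 normalised reads in the assembly libraries, compared with 48.3, 37.9 and 35.0 in total RNA. It had the largest log2 fold difference of the family, 2.42 (SE 0.19), or 5.36-fold, and rank 7 of 5670. It rested on few reads, 148 to 218 per assembly library and 41 to 64 per total RNA library. TIR3, also required for growth without oxygen, had 589.6, 710.5 and 660.1 in assemblies and 166.2, 164.6 and 188.4 in total RNA. Its log2 fold difference was 1.91 (SE 0.13), or 3.76-fold, with groups far apart. TIR4 lies on chromosome XV at 344335 to 345798, plus strand, and TIR3 on chromosome IX at 333727 to 334536, plus strand.

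TIR1, a wall protein induced by cold, had 488.5, 530.2 and 544.6 normalised reads in the assembly libraries, compared with 188.1, 211.1 and 207.1 in total RNA. Every assembly value was far above every total RNA value, and the log2 fold difference was 1.36 (SE 0.12). TIR2 was the least abundant member in assemblies, with 80.4, 111.4 and 97.8 against 46.8, 28.4 and 42.6 in total RNA. Its groups did not overlap, but with 33 to 62 reads per total RNA library its error was the largest of the family (log2 fold difference 1.29, SE 0.22). TIR1 lies on chromosome V at 175248 to 176012, plus strand, and TIR2 on chromosome XV at 346195 to 346950, minus strand, 397 bases from TIR4.

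BLAST was run at its default task, which finds highly similar stretches, so more distant relatives could be missed. Among the 5915 coding sequences matched to RefSeq, TIR1 and TIR2 were the only members with a match, namely each other. Their first 293 bases aligned without gaps at 88.4% identity, with 34 differing bases, shown here in capitals because short reads from this stretch could be assigned to the wrong gene.
TIR1 (chrV:175248-175540, strand +): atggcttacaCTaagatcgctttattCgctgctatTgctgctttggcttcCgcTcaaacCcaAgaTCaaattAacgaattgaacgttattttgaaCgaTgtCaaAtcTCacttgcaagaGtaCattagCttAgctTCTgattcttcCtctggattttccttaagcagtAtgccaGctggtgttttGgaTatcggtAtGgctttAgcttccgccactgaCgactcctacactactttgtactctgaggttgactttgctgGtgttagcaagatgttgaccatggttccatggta
TIR2 (chrXV:346658-346950, strand -): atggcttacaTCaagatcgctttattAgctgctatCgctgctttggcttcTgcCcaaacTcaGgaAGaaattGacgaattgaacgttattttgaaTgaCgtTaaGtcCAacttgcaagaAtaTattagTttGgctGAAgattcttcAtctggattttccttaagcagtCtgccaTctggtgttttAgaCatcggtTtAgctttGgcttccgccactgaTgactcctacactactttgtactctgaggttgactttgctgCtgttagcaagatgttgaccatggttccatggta
The longest identical run was 40 bases. The sources used here do not say how reads that map to several places were treated, so how many reads were shared between them was not tested. No member had a copy among these coding sequences that was 95% or more identical over 50% or more of its length. The rest of the genome was not searched.

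The order of the mRNAs by level differed between the 2 kinds of RNA. Per kilobase of coding length, CCW12 led in total RNA with 95355 ± 8007 normalised reads, followed by CWP2 with 58989 ± 8874 and SED1 with 10586 ± 1417 (mean ± SD, n = 3). CCW14, TIP1 and CWP1 came next with 3130, 2619 and 2141. TIR1 and TIR3 had 264.2 and 213.6, and TIR2 and TIR4 had 52.0 and 27.6. No neighbours in this order overlapped between their 3 libraries. In assemblies CWP2 led with 70232 ± 10680, and CCW12 (52975 ± 4865) and SED1 (49740 ± 9764) overlapped (n = 3 each). TIR3 stood above TIR1 in assemblies, with 806.7 and 681.1 normalised reads per kilobase, and TIR4 and TIR2, with 151.1 and 127.7, overlapped. Coding lengths leave out untranslated regions, which weigh most in the short genes.

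The make-up of the family differed between the groups. Its summed level was 111953 ± 14322 normalised reads in assemblies against 71455 ± 7250 (n = 3 each), with no overlap. As a share of all reads, which amounts to equal library totals, the groups did overlap. The 10 mRNAs took 0.901%, 0.949% and 0.998% of all reads in the assembly libraries. In the total RNA libraries they took 0.901%, 0.844% and 0.955%, a range that crosses that of the assemblies. Within the family, CCW12 held 53.7% ± 0.943 of the family's normalised reads in total RNA libraries but 19.2% ± 2.44 of assembly libraries (SD, n = 3 each). SED1 held 15.0% ± 0.477 in total RNA and 44.9% ± 3.27 in assemblies. CCW14 went from 3.16% ± 0.239 to 10.1% ± 0.718, and CWP2 from 23.0% ± 1.11 to 17.5% ± 1.88 (n = 3 each).

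**Figure D2:**
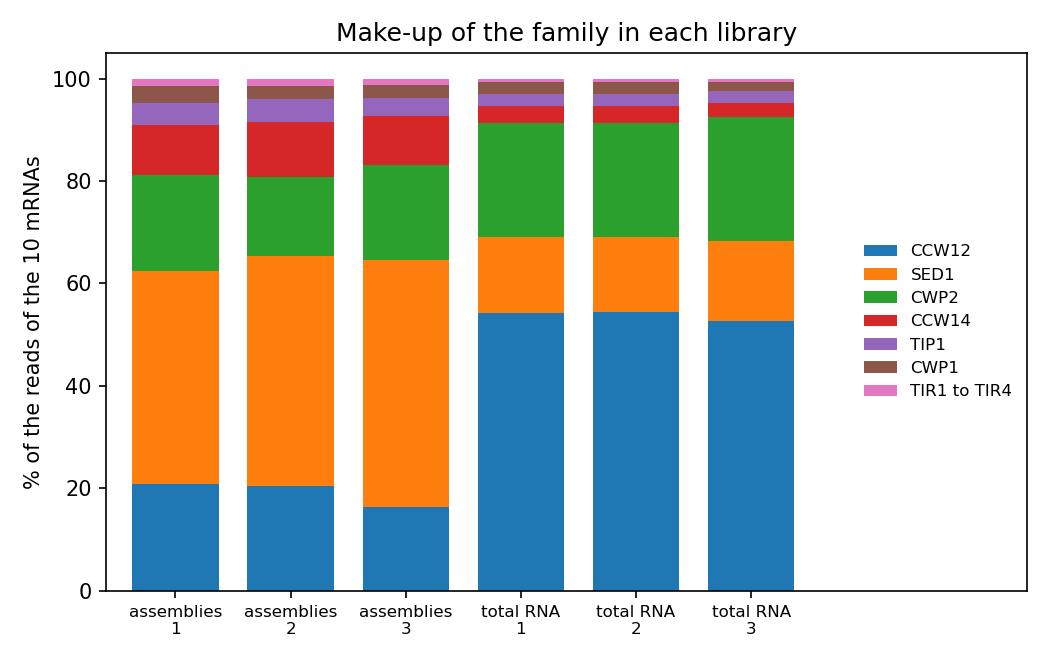
Share (%) of the normalised reads of the 10 mRNAs taken by each mRNA in the 3 assembly and 3 total RNA libraries, with TIR1 to TIR4 summed. CCW12 took 52.6% to 54.3% in total RNA libraries and 16.4% to 20.9% in assembly libraries, and SED1 took 14.7% to 15.6% and 41.6% to 48.1%.

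Long coding sequences were in general higher in assemblies, yet these genes are short, from 279 nt in CWP2 to 1464 nt in TIR4. Each member was therefore set beside the other nuclear genes within 20% of its coding length, 184 to 1296 genes each. All 10 members were above the median of such genes, and 8 were above their 95th percentile. CCW14 (717 nt) stood at 2.32 where the median of 783 genes was -1.03 and none was as high. TIR4 at 2.42 was above all 1296 genes of like length, whose median was 0.07. SED1 (1017 nt, median -0.53) and TIR3 (810 nt, median -0.89) were each reached by 3 genes of like length.

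The members that were not higher in assemblies were the shortest. CWP2, at 0.25, was above a median of -1.58 over 184 genes, 11.4% of which were as high. CCW12, at -0.85, was nearest to genes of its length, whose median was -1.27 over 395 genes, and 35.4% of them were as high. The median distance from genes of like length was 2.34 on the log2 scale over the 10 members. Over the members, Spearman's rho between the log2 fold difference and coding length was 0.70 (n = 10 genes measured in the same libraries, a description). After log2 values were fitted on length and GC content in each library, the log2 fold difference was 2.59 for CCW14, 1.64 for TIR4, 0.61 for CWP2 and -0.58 for CCW12.

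**Figure D3:**
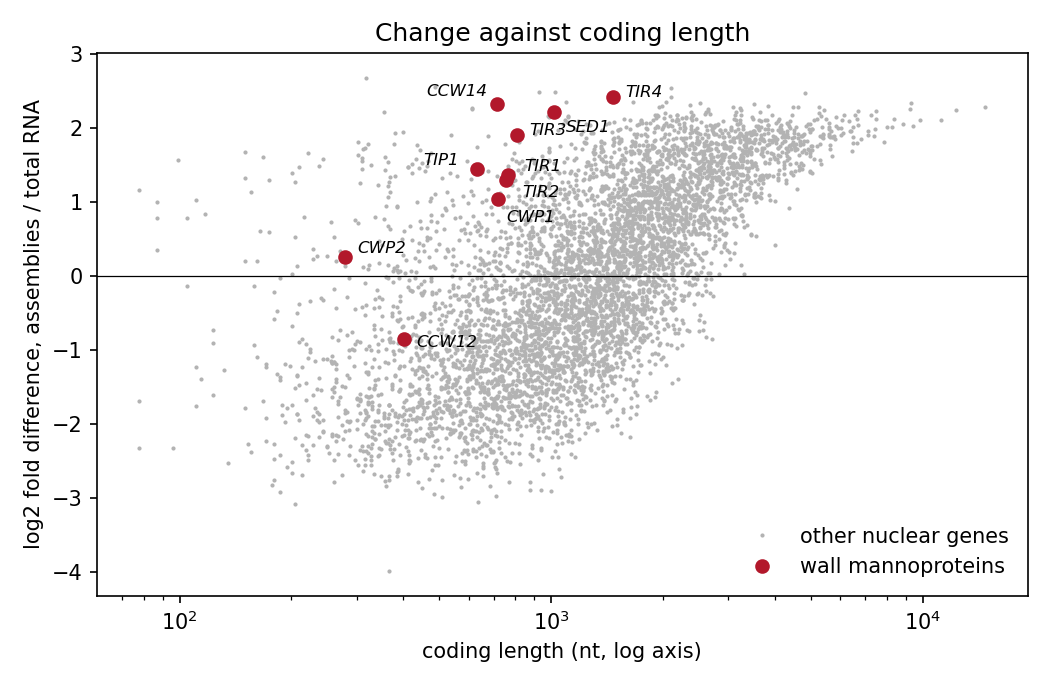
Log2 fold difference between assemblies and total RNA against coding length (nt, log axis) for 5504 nuclear genes tested, with the 10 wall mannoproteins in red. Of the red points, 8 lie near the upper edge of the cloud at their lengths, and CWP2 at 279 nt and CCW12 at 402 nt lie inside it.

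In base composition the members were far from other nuclear genes. C made up 23.6% to 33.4% of their coding sequences, with a median of 29.2%, against a median of 18.8% over 5504 nuclear genes tested. In 9 of the 10, all but CWP1, it was above the 95th percentile of 24.5%, and SED1 ranked 2nd. A made up 18.7% to 28.5%, and in 9 of the 10, all but SED1, it was below the 5th percentile of 26.0%. G was not raised, with a median of 19.2% in the members and 21.0% in all genes.

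Serine and threonine codons made up 27.2% to 42.4% of all codons, above the 95th percentile of nuclear genes (20.6%) in all 10 members. They were most frequent in CCW14 (42.4%), SED1 (41.7%) and TIR4 (41.3%), and fewest in CWP2 (27.2%) and CWP1 (28.5%), with 30.1% in CCW12. The members with most of these codons were those with the largest log2 fold difference, with Spearman's rho of 0.89 over the 10 genes. The share of G and of alanine codons ran the other way, with a rho of -0.76 and -0.65, and rho with the share of C was 0.12. CWP2 had the largest share of alanine codons of all nuclear genes tested, 26.1%. These are descriptions of genes that share libraries and differ in length as well.

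Repeated sequence was found in some members. The share of 12-base words that occur more than once within the coding sequence was 30.5% in SED1, 27.1% in TIR1 and 25.9% in TIR4, against a median of 0 over nuclear genes, and was 0 in CWP1 and CWP2. It was above the 95th percentile of nuclear genes (1.20%) in 7 of the 10. Over the 10 members, Spearman's rho between this share and the log2 fold difference was 0.67, again a description. The predicted minimum free energy of folding was not unusual, from -26.9 kcal/mol per 100 nt in CWP1 to -17.0 in SED1, with a median of -23.1 against -23.8 over 3431 genes. SED1 alone was past the 95th percentile, on the side of weak folding.

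**Figure D4:**
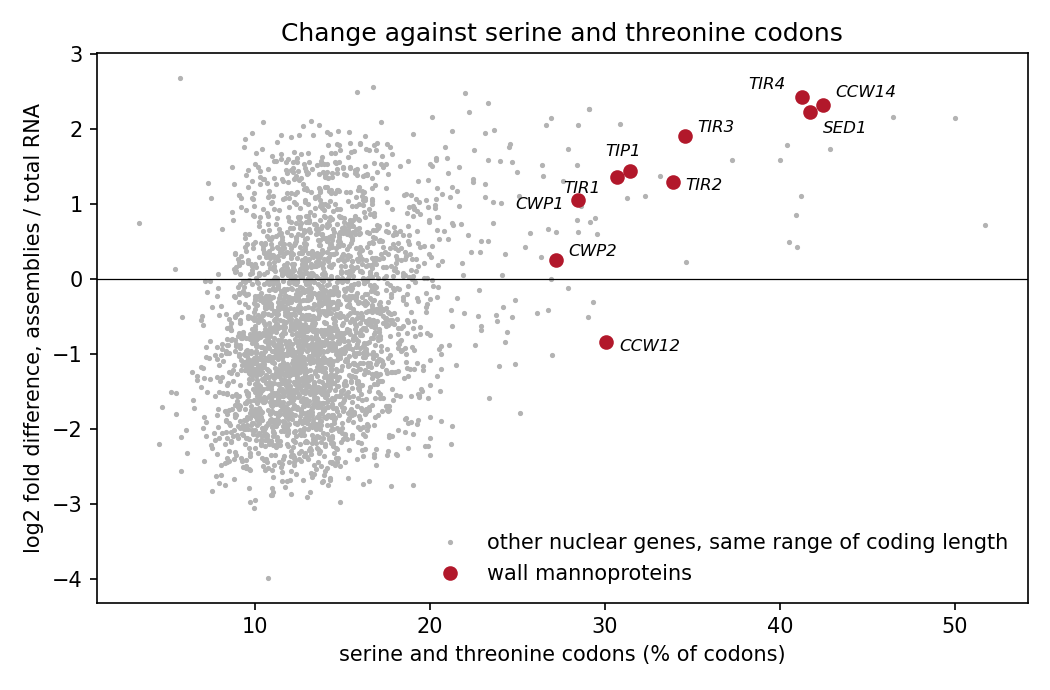
Log2 fold difference against the share of serine and threonine codons (% of codons) for nuclear genes of 279 to 1464 nt, with the wall mannoproteins in red. From CWP2 (27.2%) to CCW14 (42.4%) the red points climb, with CCW12 (30.1%) below the others.

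The same traits were looked at in other genes, with limits set from the members after their values were seen and hence with no test. Of the nuclear genes of 279 to 1464 nt, 33 others had at least the share of serine and threonine codons of CWP2 (27.2%). Of these 33, 27 were higher in assemblies and 0 lower (limma). Genes lower numbered 1 at an unadjusted p under 0.05, 1 with edgeR and 0 with DESeq2. The median log2 fold difference of the 33 was 1.08. It was -0.75 over the 3048 genes below that limit, of which 570 were higher and 1890 lower. Coding lengths were alike, with medians of 900 and 879 nt, but the 33 genes were more abundant, with a median level of 1114 normalised reads against 245.7, and the part of abundance in the difference was not tested. Of the 33 genes, 6 also belong to the list of other GPI proteins below. How many of the others also encode wall or surface proteins was not counted. The set of 33 is therefore not independent of the family's kind of gene. A split by the share of C used a looser limit, so its counts cannot be set against those of the 33. That limit was at percentile 92.9 of nuclear genes, and the limit on serine and threonine codons at 98.6. In the same length range, 258 other genes had at least the share of C of CWP1 (23.6%), the lowest member. Limma called 156 of these 258 higher in assemblies but 42 lower, and their log2 fold differences centred on 0.69 (median). Among the 2823 genes with less C, it called 441 higher and 1848 lower (median -0.83). Over 3421 other nuclear genes of 250 to 1600 nt, Spearman's rho between the length-adjusted difference and the share of C was 0.38, and it was 0.23 with serine and threonine codons, 0.25 with GC content and 0.04 with folding energy. These are correlations across genes, which are not independent replicates.

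Other GPI proteins of the cell surface were also mostly higher in assemblies. Of 23 such genes, 19 were tested, and 17 were higher and 0 lower (limma, adjusted p threshold 0.05; 0 lower at an unadjusted p under 0.05, with edgeR and with DESeq2), where 41.3% of all genes tested were higher and 40.8% lower. Their median log2 fold difference was 2.02. This list, and those of GPI synthesis and O-mannosylation below, were chosen with earlier results of these data known. The genes named from them were picked for large changes in this comparison, so their p-values are not independent support. FIG2, an adhesin of mating cells, had a log2 fold difference of 2.47 (SE 0.16, limma, adjusted p = 3.17e-07). The flocculins FLO10 and FLO1, which bind cells to each other, had 2.32 and 2.28 (limma, adjusted p = 3.17e-07 and 3.49e-07). FLO1 has a partial copy in FLO9, with 95.1% identity over 54.9% of its length, that could share its reads. FLO5, with 88.4% identity over 45.4% of the length of FLO1 in its longest match, could also share them. These genes are longer than the members, with a median coding length of 2178 nt. Only 11 were higher and 0 lower once length and GC content had been regressed out, where 1884 and 1926 of 5504 nuclear genes were. None of the 3 named genes was then called, with 0.34 for FIG2, 0.40 for FLO10 and -0.11 for FLO1 (limma, adjusted p = 0.064, 0.081 and 0.68). SPI1 and PAU23 were not called, with 447 and 375 nt. TOS6, named after its values were seen as the shortest tested gene of this list (309 nt), stood at 3743 ± 309.0 normalised reads in assemblies against 1242 ± 48.5 (n = 3 each).

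Of 34 genes of GPI synthesis, attachment, remodelling and export, 12 were higher and 14 lower, with a median log2 fold difference of -0.29, shares near those over all genes tested (41.3% higher and 40.8% lower). GPI11, ERP1 and GPI14 were lowest among those named by the fixed rule, with -2.00, -1.64 and -1.48 (limma, adjusted p from 3.37e-07 to 2.13e-06). GPI11 and GPI14 act in anchor synthesis and ERP1 belongs to the p24 proteins of vesicle transport. GPI13, which adds phosphoethanolamine to the anchor, was highest with 2.02 (limma, adjusted p = 3.64e-07). With equal library totals, 6 were higher and 22 lower, where 1584 and 3045 of the 5670 genes tested were.

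Of 12 genes of O-mannosylation, 8 were higher and 3 lower (median log2 fold difference 0.41), where 41.3% and 40.8% of all genes tested were. With length and GC content regressed out 3 were higher and 6 lower, where 1884 and 1926 of 5504 nuclear genes were. The protein O-mannosyltransferases PMT4 and PMT2 led with 2.00 and 1.96 (limma, adjusted p = 7.26e-07 and 3.90e-07), followed by PMT1, with 9732 ± 1497 normalised reads in assemblies against 4132 ± 119.0 (n = 3 each; limma, adjusted p = 5.88e-06). That regression left PMT1 at -0.068 and not called (limma, adjusted p = 0.44). MNT2, a Golgi mannosyltransferase, was lowest with -1.57 (limma, adjusted p = 1.14e-06). Without total RNA library 1, 5 of the 12 were higher, and 2194 of the 5670 genes tested. With equal library totals 4 were higher and 4 lower, where 1584 and 3045 of all genes tested were.

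Of 12 open reading frames next to the members on the chromosome that were tested and are not members, 2 were higher, 5 lower and 5 not called (41.3% and 40.8% of all genes tested were higher and lower), with a median log2 fold difference of -0.17. AHP1, a peroxiredoxin gene 386 bases from CCW12, had -1.39 (SE 0.27, limma, adjusted p = 0.000425), and SHU2, 389 bases from SED1, had -2.04 (SE 0.30, limma, adjusted p = 4.95e-05). AUS1, a sterol importer gene next to TIR2 with a coding length of 4185 nt, was highest with 1.79 (SE 0.16, limma, adjusted p = 9.82e-07). No RefSeq gene overlapped a member, and open reading frames of the table without a RefSeq entry, 688 in all, could not be placed.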

How the data were processed

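RNA-seq of 3 libraries of RNA assemblies and 3 of total RNA was analysed. The submitters' processing notes name build R64 and the tools Bowtie 0.12.7, Trimmomatic 0.32, DESeq 1.22.1, HTSeq and FastQC; the sources used here give no strand setting, treatment of multimapping reads or annotation. The deposited values are a signal, which the authors call normalised reads per the file headers, with group means and a ratio of them, the fold change, which were not used here. Dividing by the step of each library gave whole reads for 100% of nonzero values (tolerance 0.01). The table held 6603 open reading frames and 4 lines without values; 5915 matched a RefSeq coding sequence.

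Because values are not counts, log2(value + 1) was tested with limma-trend (limma 3.58.1 under R 4.3.3) for 5670 genes averaging 10 or more. The test was two-sided, without covariates, at a Benjamini-Hochberg threshold of 0.05. It was tried on simulated data with 200 changed genes and a dispersion of 0.01. Far more genes were called in the real libraries, so the simulation does not show how the fit behaves when most genes differ. On the recovered reads edgeR 4.0.16 called 2232 genes higher and 2471 lower, and limma 2342 and 2316. BLAST 2.17.0 and ViennaRNA 2.7.2 (coding sequences of 250 to 1600 nt) were run on RefSeq sequences. Length adjustment in the text is the residual from a cubic fit of the log2 fold difference on log2 coding length. Named genes are the 10 members, up to 3 called genes with a mean of at least 100 per list plus the one furthest the other way, neighbours, and the strain's deleted genes. Members and lists were chosen with earlier results of these data known. PAU23 and PAU24 entered the GPI list under older names, DAN2 and DAN3.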

Additional observations from a re-analysis of the deposited data

How the results depend on the processing

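Settings were changed one at a time. The 8 higher members and CCW12 lower were counted in every fit that left out 1 library (8 and 1 throughout), and the members' median log2 fold difference was then 1.36 to 1.46. It was 0.84 with equal library totals, 1.57 after quantile normalisation and 1.65 with length and GC content regressed out, and members lower numbered 2 under each of the first 2 scalings, where CWP2 joined CCW12 (-0.32 and -0.33), while the regression on length and GC content gave 9 higher, with CWP2 at 0.61 among them. Of 169 alternative values for members, 141 moved by less than the spread between replicates and 28 by more, none of a called member changing sign. With equal totals the GPI pathway had 6 higher and 22 lower genes and O-mannosylation 4 higher. Over all genes tested 1584 were then higher and 3045 lower. Quantile normalisation gave O-mannosylation 5 higher and 5 lower, and all genes tested 2406 higher and 2103 lower. With length and GC content fitted out, O-mannosylation had 3 higher and 6 lower, other GPI proteins 11 higher, FLO1 -0.11 and PMT1 -0.068, and FIG2 and FLO10 were not called (limma, adjusted p = 0.064 and 0.081). That fit called 1884 nuclear genes higher and 1926 lower. Other GPI proteins had 2 lower genes with no filter on low values. Leaving out 1 library gave 5 to 8 higher genes of O-mannosylation.

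Replicate numbers are shared between groups. Deviations of same-numbered libraries correlated at 0.0777, 0.167 and 0.276, and those of differently numbered ones at -0.264 to 0.220. The ranges overlapped, so the number is not taken as a pairing. With the replicate block, 2375 genes were higher and 2350 lower, and 1 other GPI gene was lower. TIR4 and TIR2 exchange the last 2 ranks in total RNA when levels are not divided by length. Depth limits TIR2 and TIR4 most, with as few as 33 and 41 reads in a library. The causes of these changes were not tested.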
